A study of Mus musculus with 9 samples.

Results

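Prm1, Prm2, Tnp1, Tnp2, Ldhc, Fabp9, Odf1, Odf2, Akap4 and Smcp are 10 genes whose transcripts are made by male germ cells and are still carried by spermatozoa. They were taken by name from a matrix of 32195 genes, all 10 were found, and each had at least 1 UMI (unique molecular identifier, a tag that marks 1 captured RNA molecule) in all 9 libraries. The libraries were single-cell RNA-seq of the epididymis of untreated C57BL/6 mice, dissected into caput, corpus and cauda, the segments that sperm pass in that order. Tissue from several mice was pooled in each library. The p-values measure spread between pooled libraries, within a pool or a library where that was the block of the fit. There was 1 pool at P42 (42 days of age) and there were 2 pools at P56 (56 days), so each segment had 1 library at P42 and 2 at P56. The headers of the table give the segment and a number, and the number 0 was read as P42 because that is the only library of each segment with no replicate number, so every comparison of ages rests on that reading.

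Spermatozoa transcribe little or nothing, and the RNA they hold was made in the testis. Protamines (Prm1, Prm2) pack DNA in the sperm head after the transition proteins (Tnp1, Tnp2) have taken the place of most histones. Ldhc is the lactate dehydrogenase of germ cells, already made in meiotic spermatocytes, and Fabp9 is a fatty acid binding protein of the perforatorium under the acrosome. Odf1 and Odf2 belong to the outer dense fibres of the tail, Akap4 is the main scaffold of its fibrous sheath, and Smcp lies in the sheath of mitochondria around the midpiece. Odf2 is also a protein of centriole appendages and cilia in other cell types.

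In GENCODE M21 (GRCm38) 3 of the genes are neighbours on the minus strand of chromosome 16, Tnp2 at 10787936 to 10788660, Prm2 at 10791380 to 10796134 and Prm1 at 10796326 to 10805839. Tnp1 lies alone on chromosome 1 at 73015074 to 73015909, minus strand, and overlaps 1700027A15Rik on the other strand. Prm1 overlaps Gm46563 and Gm10343 and Odf2 overlaps Gm23865 on the other strand, and Fabp9 overlaps Gm37389 on its own strand, so reads of these pairs may have been divided in counting. The 250 bases before the start are shown for these 4 condensation genes, which act in turn on the same DNA, and for Akap4, from the RefSeq promoter table (GRCm38.p6). Akap4 was added after the sequences had been seen, because it holds the third match to the motif marked in them. They are chr16:10796824-10797073, minus strand, for Prm1, chr16:10792106-10792355, minus strand, for Prm2 (both inside the spans of the longer GENCODE gene models), chr16:10788656-10788905, minus strand, for Tnp2, chr1:73015900-73016149, minus strand, for Tnp1 and chrX:7067265-7067514, plus strand, for Akap4. Each is written 5′ to 3′ on the strand of its gene, and capitals mark matches to TGANGTCA, a relaxed form of the cyclic AMP response element, searched on both strands and chosen after the sequences had been seen.
Prm1: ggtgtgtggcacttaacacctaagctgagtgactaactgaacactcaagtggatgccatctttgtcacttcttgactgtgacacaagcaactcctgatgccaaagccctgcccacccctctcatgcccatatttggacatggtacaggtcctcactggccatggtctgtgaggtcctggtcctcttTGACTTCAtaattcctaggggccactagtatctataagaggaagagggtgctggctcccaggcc
Prm2: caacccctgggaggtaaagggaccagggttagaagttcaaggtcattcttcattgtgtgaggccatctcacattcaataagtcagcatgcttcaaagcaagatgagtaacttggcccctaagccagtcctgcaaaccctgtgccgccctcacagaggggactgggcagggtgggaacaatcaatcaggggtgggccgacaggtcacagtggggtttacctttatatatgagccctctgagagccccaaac
Tnp2: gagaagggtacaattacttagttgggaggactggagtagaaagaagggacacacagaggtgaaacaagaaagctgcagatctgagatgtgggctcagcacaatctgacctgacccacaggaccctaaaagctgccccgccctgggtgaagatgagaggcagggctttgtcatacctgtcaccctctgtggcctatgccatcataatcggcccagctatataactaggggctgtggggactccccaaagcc
Tnp1: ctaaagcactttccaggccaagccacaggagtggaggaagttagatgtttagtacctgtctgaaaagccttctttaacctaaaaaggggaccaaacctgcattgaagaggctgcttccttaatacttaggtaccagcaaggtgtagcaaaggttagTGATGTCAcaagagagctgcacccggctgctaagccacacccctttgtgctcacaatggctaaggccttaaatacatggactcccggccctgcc
Akap4: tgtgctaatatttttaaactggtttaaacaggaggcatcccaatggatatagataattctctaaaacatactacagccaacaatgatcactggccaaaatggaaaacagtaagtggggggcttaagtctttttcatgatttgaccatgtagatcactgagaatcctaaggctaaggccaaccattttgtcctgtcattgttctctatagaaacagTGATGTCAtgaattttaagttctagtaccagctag

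The match lay 64 to 57 bases before the start in Prm1, 94 to 87 in Tnp1 and 35 to 28 in Akap4. Of the 13 promoters that RefSeq lists for 8 of the 10 genes, 3 held a match and the other 8 that are not shown held 0, beside 7.49% of all 32851 promoters. The full palindrome TGACGTCA was in 0 of these 13 and in 1.55% of all promoters.

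After limits on detected genes, UMIs and mitochondrial share, 41036 cells with 259984768 UMIs were used, with a median of 3061 to 7641 UMIs per cell by library. Cells were gated by marker genes that are not among the 10. A cell was called sperm-gated if it held at least 3 of 12 other sperm genes (among them Oaz3, Gapdhs, Pgk2 and Hmgb4) at 0.2% or more of its UMIs, and 294 cells passed, 0.716% of those used. A further 100 cells passed the sperm gate and another gate, 30156 passed another gate alone (principal, basal, clear or narrow, myoid or fibroblast, macrophage or monocyte, halo or T, endothelial or ciliated), and 9004 passed none. The sperm gate divided a continuous range, with 175 cells between 0.1% and 0.2% and 180 between 0.2% and 0.4%. Markers of every other cell type were found in the sperm-gated cells. The 9 principal cell markers summed to 7722 to 26311 CPM (UMI counts of a gene scaled to the same total in every sum of cells) by library, against 26130 to 44929 in the principal gate, and the 8 myoid or fibroblast markers to 336 to 14644, against 10188 to 71405 in their own gate. The sums were 86.1 to 1108 for the 8 macrophage or monocyte markers, 492 to 935 for the 6 of clear or narrow cells, 19.2 to 246 for the 8 of halo or T cells and 5.80 to 123 for the 7 endothelial ones. Of the 6 basal and the 6 ciliated markers 5 each were detected, at 0 to 107 and 161 to 366 CPM, with Aqp3 and Sntn at 0. The part of these transcripts in the results was not tested. The caput library of P56 replicate 2 stood apart, with 111 sperm-gated cells and 40787 of the 99442 UMIs of the 10 genes in used cells. Both P56 cauda libraries had 0 sperm-gated cells, where a limit of 3 cells allows a share of up to 0.0618% and 0.0617%, and each held 1 cell that passed the sperm gate and another gate. Of 44631 barcode sequences, 143 occurred in more than 1 library.

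All 10 genes were higher in sperm-gated cells than in the other gated cells of the same library. Prm1 had 9726 ± 5274 CPM (mean ± SD, n = 6 libraries with at least 10 such cells) in the sperm gate and 26.9 ± 28.6 (n = 9) in the principal gate. By library its level in the sperm gate was 8055 and 7813 in the P56 caput, 9670, 15679 and 1694 in the corpus (P42, then P56 replicates 1 and 2), and 15444 in the P42 cauda. The lowest of these was far above the highest principal value of 91.5, so the gates did not overlap. Smcp had 8377 ± 6253 in the sperm gate and 62.6 ± 55.9 in the principal gate. By the ratio of means Odf2, with 664 ± 386 against 8.27 ± 3.18, was separated by less. Its lowest sperm-gated value was 317 and its highest principal value 13.8, so these gates did not overlap either.

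In edgeR's quasi-likelihood test with the library as a block, 10 of 10 genes passed an adjusted p of 0.05 and a log2 change of 1, beside 13.3% of the 12263 genes tested that were called higher and 25.8% called in either direction. The log2 difference was 7.43 for Prm1, 7.23 for Prm2, 7.95 for Tnp1 and 7.53 for Tnp2, and edgeR's adjusted p for Prm1 was 1.84e-151. For the enzymes and the perforatorial protein it was 6.39 (Ldhc) and 7.24 (Fabp9). For the tail genes it was 5.25 (Odf1), 5.45 (Odf2), 6.96 (Akap4) and 6.02 (Smcp). The median of the 10 genes was 7.09, and that of all genes tested was -0.53. With the sperm gate raised to 1% of UMIs, 7 of the 10 were called. The libraries of this test share pools of mice and are not independent, so its p-values are too small. The gate picks cells by other sperm genes, so a rise of these 10 was largely set in advance.

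Further sperm genes came from 4 lists, of which those that passed the filter on low counts were tested, and 13.3% of all genes tested were called higher. The gate selects cells by sperm genes, and a gene could pass the filter through the sperm-gated sums alone. A rise of these lists was thus largely set in advance, and the share over all genes is not a like comparison. Of 8 chromatin condensation genes in the matrix 6 were tested and 5 rose, among them Prm3 (log2 7.70), the spermatid linker histones Hils1 (7.69) and H1f7 (7.29), and Brdt (4.76), the testis bromodomain protein. Of 17 tail genes 12 were tested and all 12 rose, with Ropn1 at 7.74 and Akap3, the partner of Akap4 in the fibrous sheath, at 7.05. Of 10 energy genes 8 were tested and 7 rose, with the testis aldolases Aldoart1 and Aldoart2 at 7.01 and Pdha2, a pyruvate dehydrogenase subunit, at 6.38. Of 13 acrosome genes only 4 were tested and these rose, from Zpbp2 at 5.61 to Izumo4 at 1.39.

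**Figure D1:**
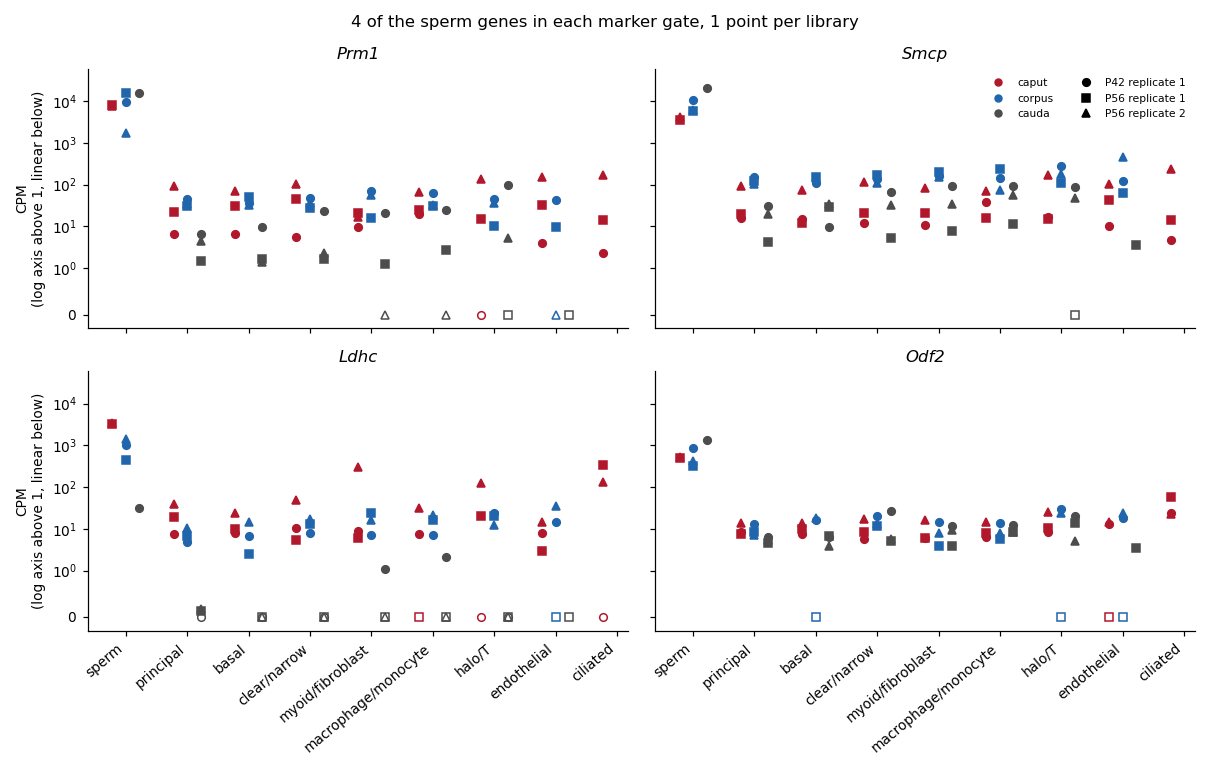
CPM (axis linear below 1 and logarithmic above) of 4 of the genes in each marker gate, 1 point per library. Sperm-gated values of Prm1 run from 1694 to 15679 while the principal gate stays at or below 91.5, and the lowest sperm-gated value of Ldhc, 30.8 in the P42 cauda, lies within the range of other gates.

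Cells of every marker gate carried some of these transcripts. In all, 37.0% of the used cells had a UMI of at least 1 of the 10 genes, and the sperm-gated cells held 43.9% of their UMIs. Smcp was detected in 95.9% of sperm-gated cells and in 19.6% of principal cells, a cell type that should lack it, at median depths of 4537 and 6169 UMIs, and in 88.7% and 6.02% after each cell was thinned to 1000 UMIs. Prm1 was detected in 56.1% and 10.7% (37.0% and 2.60% after thinning). Outside the sperm gate the mean of Prm1 was 23.7 in the myoid or fibroblast gate, 26.6 in basal, 26.9 in principal, 29.3 in macrophage or monocyte, 32.6 in clear or narrow, 33.8 in endothelial, 38.9 in halo or T and 62.5 in ciliated cells, with SDs over libraries of 23.0 to 93.9. These means cover 9 libraries, but 7 for endothelial and 3, all of the caput, for ciliated cells. The ciliated values ran from 2.36 to 170.7, so the order of the means does not compare like libraries. The spread between gates of 1 library varied, from 36.7 to 71.1 over 7 gates in the P42 corpus to 16.5 to 170.7 over 8 gates in the caput of P56 replicate 2. In the P56 cauda libraries none of these gates was above 5.23. The 1051 barcodes rich in globin held 1549 Prm1 UMIs, a mean of 290.5 ± 449.5 CPM (n = 8 libraries, from 0 to 1114). These CPM are scaled to totals without globin.

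Odf1, Odf2 and Smcp made up more of the UMIs of the 10 genes outside the sperm gate than inside it in 7 of 7 libraries, with median log2 ratios of the shares of 1.31, 1.91 and 0.63. The other 7 genes had a higher share outside the gate in 0 (Tnp1) to 4 (Ldhc) of the 7. The share of Odf1 was 0.747%, 0.305% and 0.214% in the sperm-gated cells of the caput (P42, then P56 replicates 1 and 2) and 0.896%, 0.606% and 0.544% in the other gated cells. Of these genes the ratio was tested for Odf2 alone. Its share in the sperm-gated cells was 2.03%, 1.91% and 1.91% in the caput (P42, then P56 replicates 1 and 2), 2.24%, 0.904% and 2.45% in corpus libraries and 1.89% in the P42 cauda. In the other gated cells of the same libraries it was 17.6%, 7.18% and 3.53% in the caput, 4.73%, 3.55% and 3.44% in corpus libraries and 7.16% in the P42 cauda. The Odf2 share was higher outside the sperm gate by a mean log2 ratio of 1.63 ± 0.881 (SD, n = 7; two-sided exact sign-flip permutation test, p = 0.0156, the smallest that 7 libraries can give). The 7 libraries are segments of 3 pools of mice and are not independent, so this p is too small. With 1 mean per pool, added after the data had been seen, the ratio was 1.56 ± 0.754 (SD, n = 3), higher in 3 of 3 pools, with an exact p = 0.25 that is the smallest 3 pools can give. Without the P42 caput and its 8 sperm-gated cells it was 1.38 (6 libraries, exact p = 0.0312). The mean was 1.62 without ciliated-gated cells, and with the sperm gate at 1% it was 1.43, higher in 6 of 7 libraries (exact p = 0.0312). Odf2 had 34.7 ± 20.5 CPM (n = 3 caput libraries) in the ciliated gate, where the centriolar form of the protein is known to act, with 22.3 in the lowest of these libraries. The highest principal library was at 13.8, but single libraries reached 26.6 in clear or narrow and 29.8 in halo or T cells, so that the ciliated gate did not stand apart from every other gate. Of the 30 Odf2 UMIs of ciliated-gated cells 10 lay in 4 cells that also held at least 5 Ldhc UMIs. Without the P42 pool or either P56 pool the ratio was 1.31 to 2.00 with exact p of 0.0625 to 0.125, where 4 or 5 libraries cannot give less.

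The genes differed in how many cells held them. The richest 39 cells were enough to hold 50% of the Prm1 UMIs, and for Tnp1 and Tnp2 this took 19 and 23 cells, but for Prm2 132. It took 71 cells for Ldhc, 87 for Fabp9 and 112 for Akap4, and 243, 395 and 607 for Odf1, Smcp and Odf2. A single cell held 1013 Prm1 UMIs. The 10 genes made up 0.168% to 24.2% of the UMIs of a sperm-gated cell (median 1.62%), and 19 of the 294 cells held all 10 genes.

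The sperm-gated cells did not carry the genes in 1 ratio. At a limit of 10 UMIs for the sum of each pair, chosen after the cells had been seen, 69 cells held Ldhc and Fabp9 but not the protamines, 42 held both pairs, 127 held protamines alone and 56 held neither. With any UMI counted, the same classes had 40, 166, 72 and 16 cells in that order, so their sizes depend on the limit. The 69 cells (median 6263 UMIs) had Ldhc at 6367 and Prm1 at 96.0 CPM, and they also held Sycp3, a protein of the meiotic chromosome axis, at 68.6, Piwil1 at 32.0 and the meiotic cyclin Ccna1 at 240.0. In the 42 cells with both pairs Tnp1 reached 9136, Tnp2 6124 and Hils1 1764 CPM, while Sycp3 was at 4.33. The 127 cells with protamines alone had Prm2 at 11932, Tnp1 at 289 and Ldhc at 70.6, and Sycp3 was at 0 there. The 56 cells with neither were shallow (median 2563.5 UMIs) and had Smcp at 13982, Odf1 at 732 and Prm1 at 90.0. These levels describe classes defined by 4 of the genes, so no test of them is given.

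By segment the caput held 58 cells with Ldhc and Fabp9 alone, 26 with both, 55 with protamines alone and 3 with neither. The corpus held 11, 13, 67 and 46 in the same order, and the cauda 0, 3, 5 and 7. Cells with Ldhc and Fabp9 alone were 4 of 8, 9 of 23 and 45 of 111 in the 3 caput libraries (P42, then P56), 4 of 65, 2 of 36 and 5 of 36 in the corpus, and 0 of 15 in the P42 cauda. The 3 caput libraries thus all stood above the corpus libraries in this share. Thinned to 1000 UMIs, with a limit of 2, the caput counts were 56, 28, 56 and 2, those of the corpus 11, 22, 65 and 38, and those of the cauda 0, 4, 4 and 6.

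**Figure D2:**
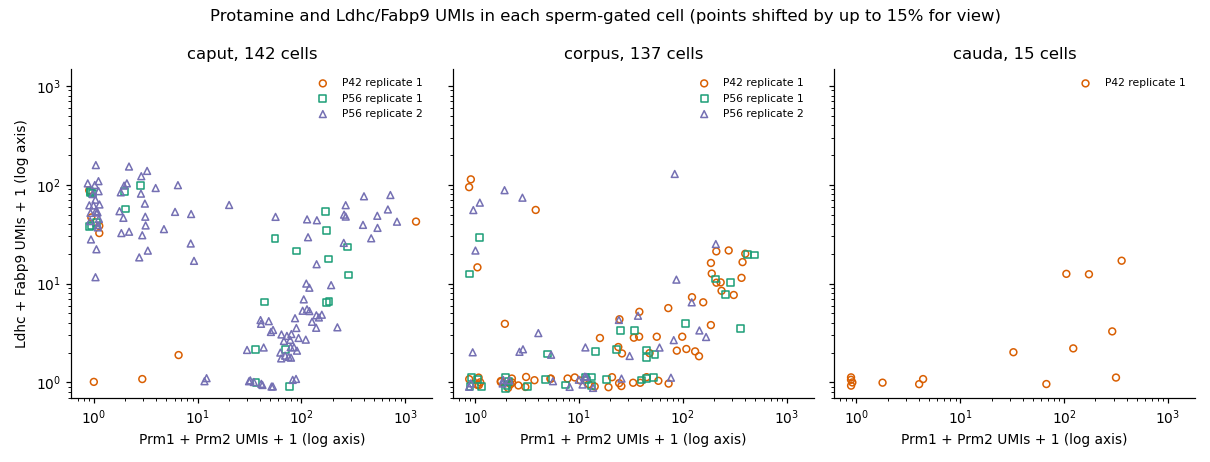
Each of the 294 sperm-gated cells by its Prm1 + Prm2 UMIs and its Ldhc + Fabp9 UMIs (both axes logarithmic, 1 added), in a panel per segment. The caput has an arm of 58 cells with Ldhc and Fabp9 and few protamine UMIs, the corpus has 11 such cells and the cauda 0.

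Of all used cells 190 had at least 5 Ldhc UMIs, 159 of them from the caput, 31 from the corpus and 0 from the cauda. Sperm-gated cells were 97 of the 190 and held 3457 of their 6040 Ldhc UMIs, while 45 had passed the principal gate and 23 no gate. Of the 190 cells 88 had no protamine UMI. All 190 together held Sycp3 at 90.5 CPM, against 0.719 over all used cells. In the 23 that passed no gate there were 852 Ldhc UMIs beside 4 Prm1 UMIs and 45 Sycp3 UMIs. The limits on cells took out 28.1% of all Ldhc UMIs, 22.2% of those of Fabp9, 14.9% of those of Odf2 and 5.77% of those of Prm1. Used cells held 259984768 of the 307987941 UMIs over all genes, with globin-rich barcodes also set apart. The share that the limits alone took out over all genes was not computed. These values thus do not show whether any of the genes lost more than genes in general.

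Across whole libraries Ldhc was lowest in the cauda of every pool. Its level was 17.9, 40.8 and 129 CPM in the caput (P42, then P56 replicates 1 and 2), corpus values were 22.6, 13.0 and 25.9, and cauda values 1.02, 0.0838 and 0.172. The cauda values lay below all others, while caput and corpus overlapped. In these sums over whole libraries fewer sperm, fewer cells rich in Ldhc and Sycp3 and less RNA per sperm cannot be told apart. The 190 cells with at least 5 Ldhc UMIs, 0 of them from the cauda, held 6040 of the 7696 Ldhc UMIs of used cells. Prm1 was at 42.7, 59.3 and 306 in the caput, at 199, 98.3 and 54.6 in the corpus, then at 55.0, 1.54 and 2.43 in the cauda, where the P42 library reached the range of the other segments. Smcp was at 42.5, 35.9 and 215 in the caput, at 338, 161 and 152 in the corpus, then at 150, 9.87 and 27.5 in the cauda. For Smcp the caput overlapped both other segments, and the highest cauda library lay just below the lowest corpus library.

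**Figure D3:**
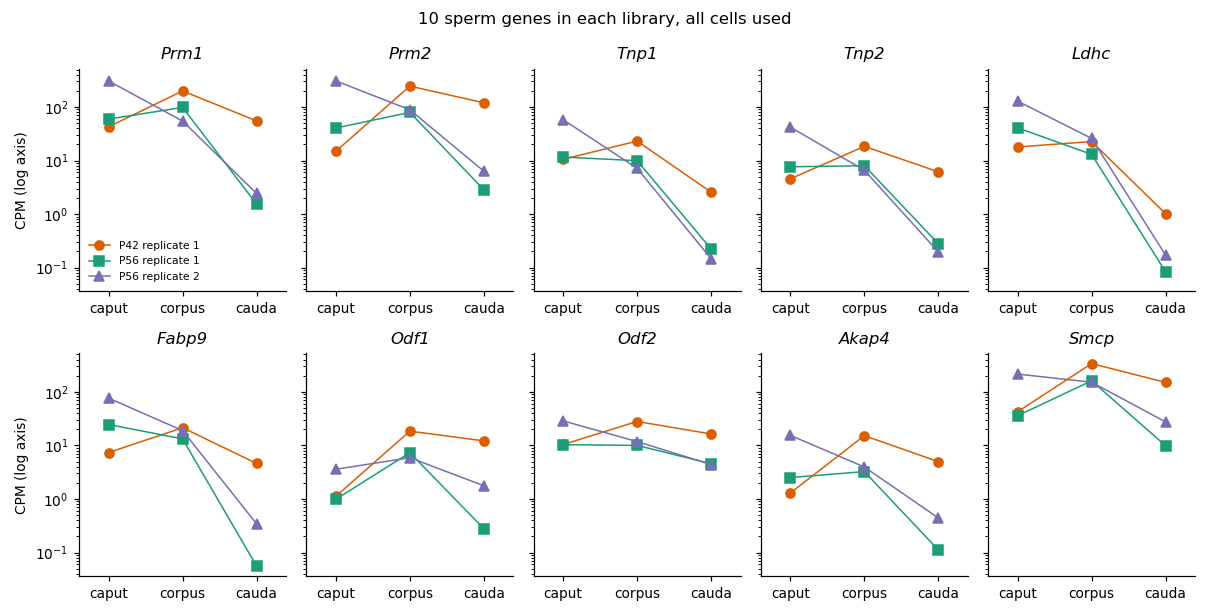
CPM (logarithmic axis) of each of the 10 genes in the 9 libraries, by segment, with the pools marked. The P56 cauda libraries lie lowest for Prm1, at 1.54 and 2.43, while the P42 cauda lies at 55.0.

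With the pool as a block, edgeR called 2 of the 10 genes between segments, against 25% of the 18370 genes tested, a share near that of all genes. Ldhc was lower in the cauda than in the caput by a log2 change of -7.07 ± 0.94 (SE; edgeR adjusted p = 0.00504 over the 3 segments), and Tnp1 by -5.05 ± 1.13 (edgeR adjusted p = 0.0335). The other 8 genes did not pass, with cauda against caput values from -4.80 (Fabp9) to 0.63 (Odf1). The median of the 10 was -3.07 and that of all genes tested 0.03. With either P56 pool left out neither gene was called (adjusted p of Ldhc 0.108 without replicate 1 and 0.0530 without replicate 2), and without the P42 pool all 10 were, Ldhc and Tnp1 among them. DESeq2 called 6 of the 10.

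The further lists had negative medians in whole libraries, where 25% of all genes tested were called. Acrosome genes were called in 8 of 13, all highest in the caput, with 329 UMIs of Spaca3 in the caput and 1 in the cauda (ratio 331.5, exact 95% counting interval 59.1 to 13132) and 239 and 1 of Acr, the acrosomal protease acrosin (ratio 240.8, interval 42.8 to 9551). The caput library of P56 replicate 2 supplied 243 of these Spaca3 and 182 of these Acr UMIs, and without it the ratios were 136.6 (23.9 to 5458) and 90.5 (15.6 to 3638). Tail genes were called in 11 of 17, of which 8 were highest in the caput and 3 in the corpus, with 575 UMIs of Fsip2, a fibrous sheath protein, in the caput and 1 in the cauda (ratio 579.4, interval 103.6 to 22922), or 295.5 (52.4 to 11733) without the 389 of that same library. Ciliated cells, which also build an axoneme, were gated almost only in the caput (64, 19 and 57 of 141), and their part in the values of the tail list was not tested. The tubulin-associated Tekt5 was the 1 called tail gene with a higher value in the cauda than in the caput, by 2.30 on the log2 scale. Energy genes were called in 5 of 10, with Cox8c, a testis subunit of cytochrome oxidase, at -7.34 on the log2 scale and Gpx4, a peroxidase that other cells also make, higher in the cauda by 1.43. Tekt5 and Gpx4 were named after their values had been seen. Condensation genes were called in 2 of 7, near the share of all genes (Hils1 at -6.24, and Hspa2, a heat shock protein also made by other cells, at -0.91). The median of the fitted cauda against caput change was -3.15, -2.40, -2.54 and -1.92 for the 4 lists in this order, and -3.72, -2.83, -3.05 and -2.74 from sums of counts over libraries with groups under 3 counts set to 3, against -0.25 for all genes tested.

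Within the sperm-gated cells Ldhc again fell toward the cauda. It had 3307 and 3366 CPM in the P56 caput libraries, 1024, 433 and 1433 in those of the corpus and 30.8 in the P42 cauda, where this was 1 UMI of 32505. The segments did not overlap. The summed caput level was 109.1 times that of the cauda, with an exact 95% interval of 19.6 to 4311 that covers counting error only. Odf1 ran the other way in these libraries, with 78.9 and 59.3 in the caput, 519, 135 and 122 in the corpus libraries and 1231 in the P42 cauda, again without overlap. The P42 caput, left out of the fit for its 8 cells, held Ldhc at 3058 CPM, near the other caput libraries, but Odf1 at 425, within the range of the corpus. The cells of the segments were of different classes, since 2393 Ldhc UMIs of the caput lay in its 58 cells with Ldhc and Fabp9 alone, beside 587 in cells with both pairs and 18 in cells with protamines alone, and the cauda had 0 cells of the first class.

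The fit had 6 libraries and 1 residual degree of freedom. The cauda entered only through P42 and the caput only through P56, so that age and segment are tied there and the contrast runs through the corpus. The cauda is 1 library with no spread of its own, and its p-values rest on the assumption that it varies like the other segments. edgeR called 2 of the 10 genes, against 13.1% of the 3934 genes tested. Ldhc had a log2 difference from the caput of -1.68 ± 0.37 (SE) in the corpus and -6.77 ± 0.99 in the cauda (edgeR adjusted p = 1.11e-09 over the segments), and Odf1 one of 2.45 ± 0.77 in the cauda (edgeR adjusted p = 0.0412). The Odf1 call was lost in 5 of 9 alternatives (adjusted p of 0.111 to 0.975, the DESeq2 value being 0.904). Smcp (1.88, edgeR adjusted p = 0.0848) and Prm2 (1.86, edgeR adjusted p = 0.162) did not pass.

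Of the further lists, 2 of 5 condensation, 3 of 15 tail, 3 of 8 energy and 2 of 11 acrosome genes were called between segments in the sperm-gated cells, against 13.1% of all genes tested, and the shares of the tail and acrosome lists were near it. Each of the called genes was lower in the cauda. Of these 10 called genes 9 had no UMI among the 32505 of the cauda cells, so that only bounds can be given. Against a floor of 3 counts over the cauda cells, Ropn1l of the tail was at least 12.5-fold lower than in the caput, Cox8c at least 8.90-fold, Hils1 at least 6.90-fold and Ropn1 at least 5.45-fold. The 58 caput cells with Ldhc and Fabp9 alone, a class with 0 cells in the cauda, held 871 Ropn1l, 692 Cox8c and 208 Hils1 UMIs. The 26 caput cells with both pairs held 197, 36 and 344 in the same order, so more of the Hils1 UMIs lay there. The cauda had 3 cells with both pairs, which held 0 UMIs of each of these 3 genes. Cox6b2 had 1 UMI in the cauda cells, a caput level 16.1 times as high (exact 95% interval 2.87 to 637). From sums of counts over libraries with such genes at the floor, the medians of the lists were -0.41, -0.70, -0.87 and -0.60, that of all genes tested 0.38 and that of the 10 genes 1.16. The fitted medians were -0.93, -7.77, -5.78 and -7.76 for the lists, -0.69 for all genes tested and 0.09 for the 10 genes. In the cauda cells 2 of 5 condensation, 10 of 15 tail, 4 of 8 energy and 11 of 11 acrosome genes had 0 UMIs. So had 1149 of the 3934 genes tested. Genes at 0 there passed the filter through the other segments. Their fitted values depend on how the fit handles zeros, and their floor values are only bounds. As each of the 10 genes had a UMI in the cauda cells, their 2 medians differ mainly by the measure and not by zeros set to the floor.

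In the other gated cells 2 of the 10 genes were called between segments, against 25% of the 17226 genes tested. These cells are not a like part of each segment. In the P56 cauda 2687 of 4853 and 2569 of 4860 used cells passed no gate, against 93 of 4821 and 122 of 4818 in the P56 caput. Ldhc was lower in the cauda than in the caput by -5.54 ± 0.93 (SE; edgeR adjusted p = 0.0114) and Fabp9 by -4.30 ± 0.88 (edgeR adjusted p = 0.0237). Both calls were lost with either P56 pool left out, and 9 of the 10 genes were called without the P42 pool.

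As shares of the UMIs of the 10 genes in whole libraries, Prm1, Tnp1, Tnp2, Ldhc and Fabp9 each fell from caput to corpus to cauda in all 3 pools and Smcp rose, while Prm2, Odf1, Odf2 and Akap4 had no such common order. The order did not hold for each of these genes within sperm-gated cells, where in P56 replicate 1 the corpus had the higher Prm1 share (44.7%, caput 31.2%). From caput to corpus to cauda, Ldhc supplied 11.7%, 2.43% and 0.273% at P42, 17.4%, 3.23% and 0.423% in P56 replicate 1, and 10.9%, 6.90% and 0.393% in P56 replicate 2. Tnp1 supplied 6.88%, 2.48% and 0.689% at P42, 4.96%, 2.46% and 1.13% in P56 replicate 1, and 4.90%, 1.91% and 0.337% in P56 replicate 2. The share of Smcp went from 27.7% to 36.3% and 40.3% at P42, from 15.3% to 39.9% and 49.7% in P56 replicate 1, and from 18.2% to 40.4% and 62.9% in P56 replicate 2. With 3 pools an exact paired test cannot pass 0.05, and none is given. The cauda sums rested on 6965 UMIs at P42 but on 710 and 1782 at P56.

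**Figure D4:**
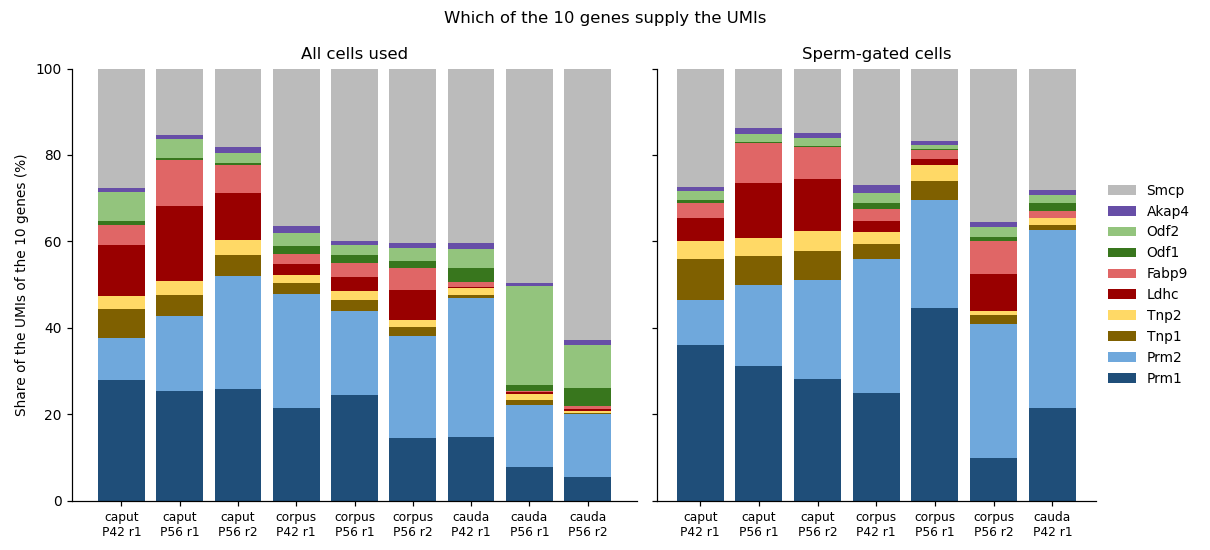
Share (%) of the UMIs of the 10 genes supplied by each gene, 1 bar per library, for whole libraries and for sperm-gated cells. In whole libraries Ldhc shrinks from 10.9% to 17.4% in the caput to below 0.5% in the cauda, and Smcp grows to 40.3% to 62.9%.

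The ages P42 and P56 were compared in whole libraries, segment by segment, a comparison added after the data had been seen. All 10 had positive fitted changes in the caput, where Fabp9 alone was called, rising by a log2 change of 3.10 ± 0.64 (SE; edgeR adjusted p = 0.0406), against 0.863% of the 21208 genes tested called higher there. Its level was 7.36 CPM at P42 and 24.6 and 76.3 at P56. For Smcp (42.5 at P42, 35.9 and 215 at P56), Odf1 (1.12, then 0.987 and 3.59) and Odf2 (10.4, then 10.3 and 28.7) P56 replicate 1 was not above P42, and the higher value came from replicate 2, the library that stands apart. In the cauda all 10 had negative fitted changes and 7 were called, against 19.4% of genes called lower. They were Prm1 (-4.02), Prm2 (-3.94), Tnp2 (-3.93), Fabp9 (-3.69), Akap4 (-3.36), Odf1 (-2.78) and Smcp (-2.25). The cells of the cauda libraries differed between ages as well, with 99 principal-gated cells at P42 against 944 and 1259 at P56 and 2033 myoid or fibroblast cells against 134 and 42, and the part of this in the change was not tested. Sperm-gated cells numbered 15 at P42 and 0 and 0 at P56 in the cauda, and 8 at P42 and 23 and 111 at P56 in the caput. Cells that passed the sperm gate and another gate numbered 21 at P42 and 1 and 1 at P56 in the cauda. In the caput there were 1 at P42 and 0 and 40 at P56. The part of both kinds of cell was not tested either. Summed over a library the sperm-gated cells held UMIs of all 10 genes. Single cells rarely did, with 0 of 15 cells in the P42 cauda and 1 of 8 in the P42 caput holding all 10. The 10 genes were measured in the same libraries, so their calls are not separate results. Within the principal gate of the cauda Prm1 was at 6.45 CPM at P42 and at 1.45 and 4.41 at P56. The P42 value comes from 99 cells of a library with a median of 3061 UMIs per cell. It thus rests on very few Prm1 UMIs, and no comparison of ages is drawn from it. In the corpus 0 of the 10 were called (10.7% of all genes were), with changes from -1.42 (Akap4) to 0.45 (Ldhc). Each segment had 1 library at P42, which is assumed to vary like those of P56.

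The difference between the caput and cauda changes was called for 9 of 10 genes, against 18.5% of all genes. It was 6.42 ± 1.13 (SE) for Prm1 (edgeR adjusted p = 0.00770) and 7.77 ± 1.40 for Prm2 (edgeR adjusted p = 0.00844), and Ldhc, at 4.73 ± 1.53, did not pass (edgeR adjusted p = 0.0611). With a term for the P56 pool, which caput and cauda share, all 10 genes were called, Ldhc at 4.74 ± 0.50 (edgeR adjusted p = 0.000210). In the fit without that term the difference ran from 2.35 (Odf2) to 7.77 (Prm2) over the 10 genes. Without the cauda library of P56 replicate 1 or of P56 replicate 2, 5 and 6 genes were called. Each age of the cauda is then 1 library, and the spread comes from the other segments. Without the caput library of P56 replicate 2, which stands apart, 9 were called but the range was 1.54 to 5.87, and without that of replicate 1 all 10 were called, at 2.83 to 8.55. The difference between caput and corpus was called for 0 of the 21208 genes, and that between corpus and cauda for 0 of the 10, against 5.44% of all genes.

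**Figure D5:**
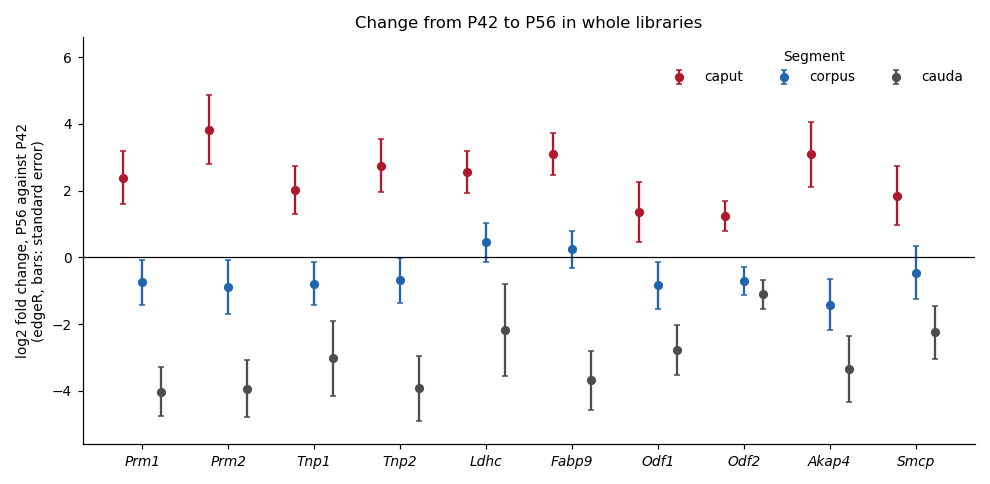
Log2 fold change from P42 to P56 in whole libraries (edgeR, bars are standard errors) for the 10 genes in each segment. All 10 points of the caput lie above 0 and all 10 of the cauda below it, from 3.83 for Prm2 in the caput to -4.02 for Prm1 in the cauda.

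Within sperm-gated cells ages could be compared in the corpus alone, since the P42 caput had 8 such cells and the P56 cauda 0. edgeR called 0 of 3934 genes (0%), with 250 at an unadjusted p under 0.05, and DESeq2 called 0, with 40. The lowest of the 10 values were those of Odf1, at a log2 change of -1.85 ± 0.38 (SE; edgeR adjusted p = 0.466), Akap4 at -1.56 ± 0.37 (edgeR adjusted p = 0.718) and Odf2 at -1.05 ± 0.34 (edgeR adjusted p = 0.718). Without P56 replicate 2 of the corpus 119 genes were called, but each age is then 1 corpus library and the spread comes from the 2 caput libraries of P56 alone. Prm1 was at 9670 at P42 and at 15679 and 1694 at P56, so that its P56 libraries lay on either side.

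Over 70 sums of cells by library and gate, 6 of them sperm, the genes whose log2 level ran most like the mean of the 10 were Spz1, a transcription factor of the testis (Pearson's r = 0.950), 1700027A15Rik (0.938), 1700029H14Rik (0.936), Iqcf4 (0.930), H2al2a (0.927), Prm3 (0.925), 1700001C19Rik (0.923), Plaat5 (0.921), Cdrt4 (0.921) and Gm9999 (0.920), out of 19527 genes. Sums of the same library share its depth, so the values are a description. 1700027A15Rik lies across Tnp1 on the other strand, and the strand used in counting is not given in the sources used here. Among the 10 genes r with their own mean ran from 0.830 (Ldhc) to 0.957 (Prm1).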

How the data were processed

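The deposited file was a table of UMI counts per gene and cell, raw and not normalized, which the authors made from libraries of dissociated epididymis, with single cells and barcoded beads caught in the wells of a microchip. The submitters' processing notes name UMI-tools, STAR 2.7.3a and GRCm38.p6, and the study's methods name the GENCODE M25 annotation. Each column header begins with the segment and a number. The numbers 1 and 2 match the replicate numbers of the P56 titles, and 0 was taken as P42, the only title of each segment with no such number.

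A cell was used if it had 300 to 4000 genes with a UMI, at most 20000 UMIs and under 50% of them mitochondrial, limits that took out 2782 barcodes. Barcodes with 10% or more globin UMIs (1051) were set apart. Globin was left out of the totals to which counts were scaled, also for these barcodes. No doublet caller was run, and cells that passed 2 gates were set apart. Any gate but sperm and principal needed at least 3 of its markers and a mean z-score of 1 or more. Principal cells passed no other gate and had a mean z-score above 0. The cell types are rebuilt here from markers and may differ from those of the study.

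Counts were summed per library (used cells 3994 to 4860) and gate, sums of at least 10 cells were kept, and edgeR 4.0.16 (R 4.3.3) was fitted over all genes by quasi-likelihood with TMM scaling, a filter on low counts, Benjamini-Hochberg adjustment, an adjusted p under 0.05 and a log2 change of at least 1 (between segments, the largest of the 3 differences). Samples of 1 age and replicate number are segments of the same pool of mice, so the pool was the block in segment fits. Deviations from the group means in same-pool pairs had r of 0.258 to 0.800 (9 of 9 pairs over 0.1), against 6 of 18 pairs from different pools. In simulated tables, where 200 genes were given a log2 change of 2, the fit recovered 93% in segments of whole libraries, 35% in segments of sperm-gated cells and 61.5% in sperm-gated against other gated cells. It recovered 11.5% in corpus ages of sperm-gated cells and 11.5% in caput ages of whole libraries. The simulated counts had the same fixed dispersion for every gene and no pool effect, so these shares do not give the power for the 10 genes. Library totals were 23114756 to 50655384 UMIs. DESeq2 1.42.0, no filter, no block, other gates, thinning, no limits on cells and leaving out each pool were tried as alternatives, with scaling factors of 1 added after the data had been seen.

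The text names the 10 genes in every comparison, up to 4 called genes of each further list by the largest log2 change, and the 10 genes most like the mean of the 10. Members and lists were chosen with earlier results of these data known. Of 10 condensation genes 8 were found in the matrix, of 17 tail genes 17, of 11 energy genes 10 and of 13 acrosome genes 13. Genes shown by class of sperm-gated cell (Sycp3, Piwil1, Ccna1, Hils1) were chosen after their values had been seen.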

Additional observations from a re-analysis of the deposited data

Results flagged for a closer look

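A test of the difference between the caput and cauda changes from P42 to P56 in whole libraries passed for 9 of the 10 genes. The log2 difference, caput minus cauda, was 6.42 for Prm1, 7.77 for Prm2, 5.05 for Tnp1, 6.67 for Tnp2, 6.78 for Fabp9, 4.14 for Odf1, 2.35 for Odf2, 6.44 for Akap4 and 4.10 for Smcp (edgeR's quasi-likelihood test). Each P42 value is 1 library. The P42 caput held 8 sperm-gated cells and the P56 caput libraries 23 and 111, while the P42 cauda held 15 and the P56 cauda libraries 0. Cells that passed the sperm gate and another gate numbered 1 in the P42 caput and 0 and 40 in the P56 caput. In the cauda there were 21 at P42 and 1 and 1 at P56. The comparison was added after the data had been seen.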

How the results depend on the processing

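Over 620 values of single genes under alternatives, 499 kept their sign and call, 84 kept the sign but changed the call, and 37 turned sign. The number of genes called between segments in sperm-gated cells was 514, and 104 with DESeq2, 1240 with the gate at 0.1%, 251 with cells thinned to 1000 UMIs, 1268 with no limits on cells and 924 with no minimum of sperm-gated cells. In other gated cells it was 4299, with 655 to 6587 when a pool was left out (655 without P56 replicate 1, 1236 without P56 replicate 2) and 2341 when thinned. In whole libraries it was 4588, with 625 to 7449 when a pool was left out and 2465 when thinned. For ages in the corpus it was 0, with 0 to 119 when a P56 library was left out, 8 with no filter on low counts, 2 with scaling factors of 1, 20 with the gate at 0.1%, 14 with 2-gate cells added, 9 when thinned and 4 with no limits. Between sperm-gated and other gated cells it was 3161, with 1942 by DESeq2, 8598 with no filter, 1487 to 3667 when a pool was left out (1487 without P56 replicate 2), 884 with the gate at 1% and 1313 when thinned. The Odf2 ratio was 1.31 to 2.00 when a pool was left out, with p of 0.0625 to 0.125, and 1.56 with 1 mean per pool (exact p = 0.25). The cause of these differences was not tested, beyond the fewer samples, cells or genes that some of the settings use.

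The pool was a block in the segment and gate fits. With no replicate block, 622 genes were called between segments in sperm-gated cells, Prm2 (2.50, edgeR adjusted p = 0.0128) and Smcp (2.50, edgeR adjusted p = 0.00810) then among them, 3047 in other gated cells, 3356 in whole libraries and 1999 between sperm-gated and other gated cells. For ages in the corpus the replicate block was a term for P56 replicate 2, which sets the P42 pool against P56 replicate 1, with which it shares only a number, and 7 genes were called. In the age difference between caput and cauda this term cancels, and 10 of the 10 genes were called.

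With scaling factors of 1 the median of all genes moved from -0.53 to -0.22 between sperm-gated and other gated cells, where 1818 genes were called higher and 301 lower in place of 1636 and 1525. Between cauda and caput it moved from -0.69 to -1.06 in sperm-gated cells (148 higher and 472 lower in place of 217 and 297), from 0.03 to -0.22 in whole libraries (1550 and 2858 in place of 2106 and 2482) and from 0.03 to -0.10 in other gated cells, and for ages in the corpus it became -0.20.

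The values that turned sign were log2 changes of genes that had not been called, and of them Odf1 was called by the test over the 3 segments without the P42 pool, in other gated cells (edgeR adjusted p = 0.000516) and in whole libraries (edgeR adjusted p = 0.00188). In sperm-gated cells (cauda against caput) Prm1 became -0.66 with no filter, -0.031 with scaling factors of 1, -0.19 with 2-gate cells added and -0.26 when thinned, Tnp2 became 0.033 with no block and 0.037 with no limits, Odf2 became -0.56 with no filter and -0.037 with the gate at 0.1%, and Akap4 became 1.40 with no block, 1.06 with no limits and 0.44 with no minimum of cells. In other gated cells Odf1 became -0.57 without the P42 pool (-0.57 to 2.05 over the pools left out), and Smcp 0.21 and 0.96 without P56 replicate 1 and 2 (-1.33 without the P42 pool), 0.030 with the gate at 0.1%, 0.22 when thinned and 0.011 with no limits. In whole libraries Odf1 became -0.73 without the P42 pool (up to 1.56 over the pools left out) and Smcp 0.31 without P56 replicate 2 (down to -2.11 over the pools left out). For ages in the corpus Prm1 became -0.19 with no filter, -0.20 with scaling factors of 1, -2.35 without P56 replicate 1 (0.90 without replicate 2) and -0.58 with the gate at 0.1%, Tnp1 became 0.46 without P56 replicate 2 (-1.70 without replicate 1), 0.17 with 2-gate cells added and 0.15 when thinned, and Tnp2 0.50 without P56 replicate 2 (-2.59 without replicate 1) and 0.086 with 2-gate cells added. Ldhc became -0.017 with no filter, -0.52 with the replicate block, -0.14 with scaling factors of 1 and -1.04 without P56 replicate 2 (0.65 without replicate 1), and Fabp9 -0.011, -0.11, -0.12 and -0.40 in the same settings, and -0.0078 with the gate at 0.1%.

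Several settings could not be fitted. They were the segments in sperm-gated cells without any 1 pool or with the gate at 1%, the ages in the corpus with the gate at 1%, the ages in sperm-gated cells of the cauda, and those of the caput except with no minimum of cells or no limits, where edgeR called 0 genes (315 and 589 at an unadjusted p under 0.05). The Odf2 ratio with the gate at 0.1% was infinite, since a library with few such cells had 0 Odf2 UMIs. Low counts limit the cauda, where 1 library held 3 Ldhc and 2 Fabp9 UMIs.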
